A study of Mus musculus with 23 samples.

Results

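The tissue factor and plasminogen system was described across PyMT mammary tumors by 8 genes of 47643 in the tables: F3 (tissue factor, ENSMUSG00000028128), Tfpi (ENSMUSG00000027082), Thbd (ENSMUSG00000074743), Procr (ENSMUSG00000027611), Plat (ENSMUSG00000031538), Plau (ENSMUSG00000021822), Plaur (ENSMUSG00000046223) and Serpinb2 (ENSMUSG00000062345). The 8 genes were taken by symbol, and the set was selected on the measured level of F3, which had been seen higher in tumors with IL-38 inhibited. PyMT mice carry a polyoma middle T transgene and form mammary tumors, and whole-tumor RNA of 23 tumors was read by 3′ mRNA sequencing. In the neutralization experiment PyMT WT mice received IgG isotype control (IgG, n = 5) or an antibody that neutralizes the cytokine IL-38 (anti-IL-38, n = 6), from when the first tumor reached a set diameter. In the γδ TCR experiment, dosing began at 13 weeks of age: PyMT WT mice with IgG (WT_IgG, n = 4), PyMT IL-38 KO mice with IgG (KO_IgG, n = 4) and PyMT IL-38 KO mice with a blocking antibody against the γδ T-cell receptor (KO_γδTCR, n = 4). Every group was dosed weekly for 5 weeks. WT mice with γδ TCR blockade were not analysed here, so the blockade was compared within the knockout only.

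Tissue factor is a cell surface receptor that binds factor VII and so starts coagulation, and in tumors it is known from cancer cells, stroma and macrophages. Tissue factor pathway inhibitor (Tfpi) blocks this complex, and thrombomodulin (Thbd) and the endothelial protein C receptor (Procr) turn thrombin toward activation of the anticoagulant protein C. The plasminogen activators tPA (Plat) and uPA (Plau) make plasmin, which dissolves fibrin and degrades matrix, the uPA receptor (Plaur) focuses this activity on the cell surface, and plasminogen activator inhibitor 2 (Serpinb2) inhibits uPA.

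The libraries held 6273049 to 15879164 reads on genes, and levels are given as CPM, the reads of a gene per 1000000 of these reads. The 5 groups of tumors thus share 1 scale. Every limma test used normalized counts within 1 table of the study, as log2(normalized count + 1), on which the change of low genes is understated. The count tests, edgeR and DESeq2, used the reads recovered from the same table. The 4 KO_γδTCR libraries and KO_IgG replicate 4 stood apart from the other 18: 1.31 to 1.98% of their reads lay on processed pseudogenes, against 0.0943 to 0.191%, 11.3 to 20.1% lay on Gm42418, against 2.62 to 5.70%, and they had 6273049 to 8794202 reads, against 10138353 to 15879164. Results that involve KO_IgG are therefore given also without replicate 4 where that changed a call or moved a printed value by over 1.5 times, whereas the KO_γδTCR group has no library outside this set. The gene of IL-38, Il1f10, had 0 reads in all 23 libraries, which allows up to 0.478 CPM in the shallowest, so the genotype labels could not be checked with it. The luminal epithelial markers summed to 1339 to 3603 CPM in each tumor.

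F3 was low in every control tumor and reached its highest levels in tumors with IL-38 inhibited. In IgG tumors F3 stood at 7.38, 2.45, 5.26, 2.84 and 3.95 CPM, and in anti-IL-38 tumors it ranged from 4.93 to 37.2 CPM with a median of 10.1 CPM. In WT_IgG tumors it stood at 3.31, 2.42, 6.45 and 6.50 CPM, and in KO_IgG tumors at 18.5, 9.33, 16.2 and 6.26 CPM. The control groups lay together, while 4 of 6 anti-IL-38 tumors and 3 of 4 KO_IgG tumors exceeded every control tumor of the 19-library table, which makes 7 of 10 for inhibition by antibody or knockout. In KO_γδTCR tumors F3 stood at 5.62, 16.2, 14.5 and 7.50 CPM, within the range of KO_IgG except for 1 tumor just below it. These levels rest on 31 to 516 reads a library.

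**Figure D1:**
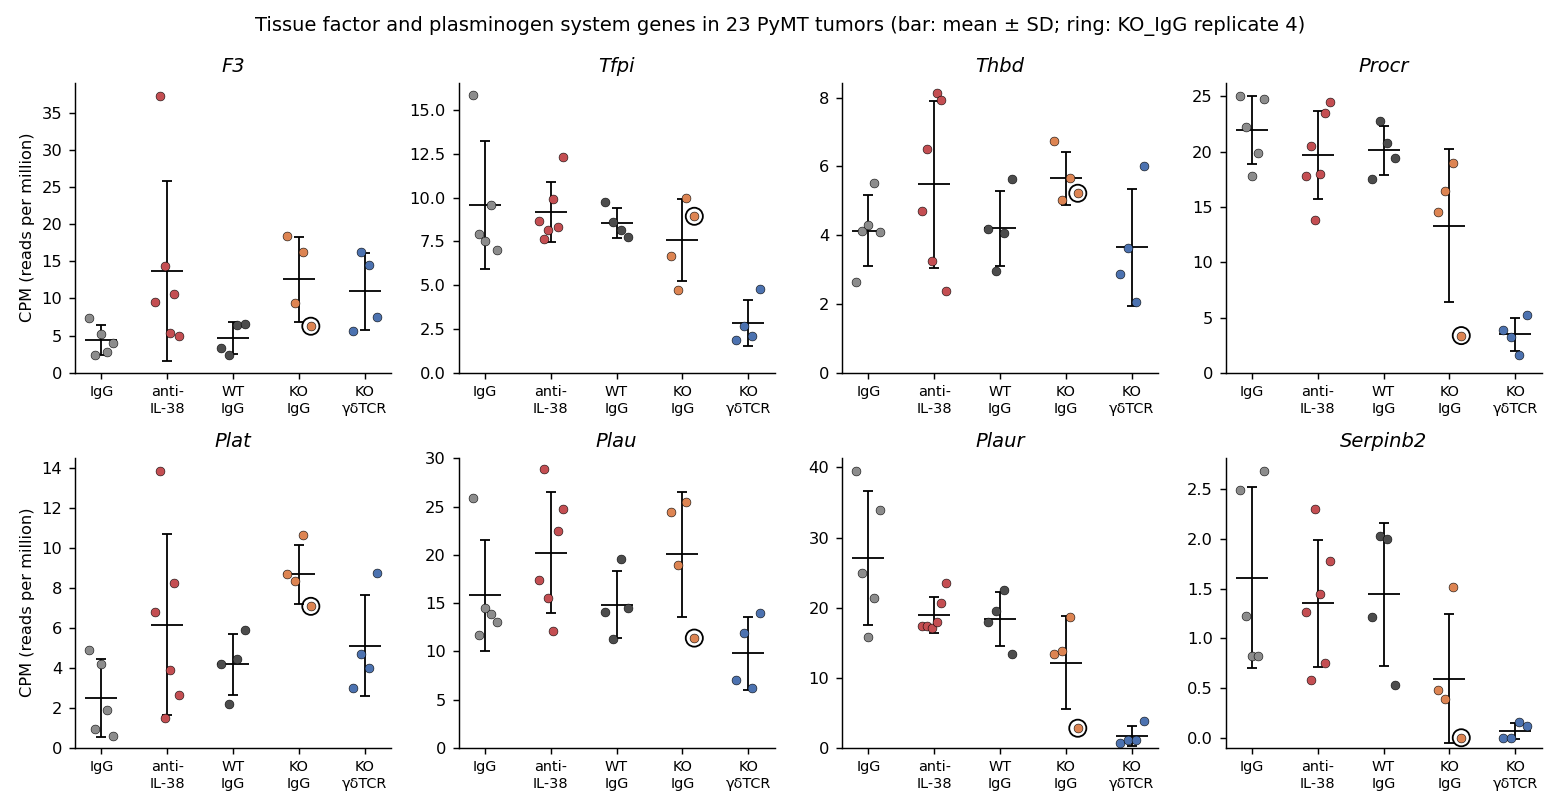
Level of each of the 8 genes in CPM (vertical axes, scaled per gene) in the 5 groups; each point is 1 tumor, the bar gives mean ± SD, and the ring marks KO_IgG replicate 4. F3 means were 4.38 and 4.67 CPM in the control groups IgG and WT_IgG and 13.7 and 12.6 CPM in anti-IL-38 and KO_IgG.

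Ordered by mean, F3 was 13.7 ± 12.1 CPM in anti-IL-38 (SD, n = 6), 12.6 ± 5.72 in KO_IgG (n = 4), 10.97 ± 5.19 in KO_γδTCR (n = 4), 4.67 ± 2.12 in WT_IgG (n = 4) and 4.38 ± 2.002 in IgG (n = 5). Neighbours among the upper 3 groups, and the 2 control groups, differed by less than their SD. The log2 fold change of F3 was 1.43 (SE 0.33) for IL-38 inhibited against control, 1.43 (SE 0.47) for anti-IL-38 against IgG and 1.43 (SE 0.40) for KO_IgG against WT_IgG, each 2.70-fold. Because F3 was picked for this difference, these values are a description without a test. Anti-IL-38 replicate 2, at 37.2 CPM, carried part of the antibody difference, which was 1.07 (SE 0.37) without it. On normalized counts all 4 KO_IgG tumors lay above all WT_IgG tumors, a separation that 3.66% of 16563 genes showed upward and 3.41% downward, but the margin of replicate 4 was 76.2 against 75.4 normalized counts and in CPM it lay below the highest WT_IgG tumor. Without KO_IgG replicate 4 the knockout difference was 1.71 (SE 0.38). The luminal epithelial markers moved in part with F3: they summed to 1339 to 2845 CPM in IgG and 1873 to 3603 in anti-IL-38 tumors, with 6 of 6 markers higher on average, whereas 3 of 6 were higher in KO_IgG than in WT_IgG (1942 to 2994 and 2574 to 2933 CPM). Of the fibroblast markers 5 of 5 were higher on average with the antibody (952 to 3218 CPM in IgG, 1151 to 3516 in anti-IL-38, median log2 fold change 0.63, none past adjustment in limma). The basal epithelial markers summed to 1682 CPM in anti-IL-38 replicate 2, the tumor with the most F3. In the rest of its group they summed to 70.2 to 1019.98 CPM, and the 70.2 CPM belonged to replicate 3, with F3 at 14.4 CPM. In the knockout 4 of 5 basal markers were lower than in WT_IgG (211 to 345 against 331 to 718 CPM). There 3 of 5 fibroblast markers were higher (median log2 fold change 0.08). Keratinocyte markers were higher for 4 of 5 tested with the antibody and 4 of 4 in the knockout, none past adjustment in limma. The part of these cell types in the F3 difference was not tested, and in whole tumors fewer cells of a type and less RNA per cell cannot be told apart.

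The sequence before the transcription start of F3 is shown because F3 is the gene on which the choice of the set rests. RefSeq promoters matched 5 of the 8 members, with no entry for Thbd, Plat and Plau. Capitals mark matches to motif letters on either strand: TGANTCA (AP-1, its own reverse complement), GGG and CC around 5 bases of any kind (NF-kB), GCGGGGGCG (Egr-1), GGGCGG (Sp1) and the TATA box, TATAAA. Of 32851 RefSeq windows of 250 bases, 6.75% held the AP-1 letters, 45.8% NF-kB, 32.7% Sp1, 2.57% Egr-1 and 12.4% the TATA box. The 250 bases before the start of F3, at chr3:121723287-121723536 on the plus strand of GRCm38.p6, were:
F3: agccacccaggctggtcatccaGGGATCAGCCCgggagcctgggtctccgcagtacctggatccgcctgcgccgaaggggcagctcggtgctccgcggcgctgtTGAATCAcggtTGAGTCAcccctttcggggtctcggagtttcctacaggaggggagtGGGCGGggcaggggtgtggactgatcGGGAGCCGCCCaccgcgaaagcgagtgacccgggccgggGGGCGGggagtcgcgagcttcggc
They held 2 AP-1 matches, 4 NF-kB matches that form 2 overlapping pairs, 1 on each strand, and 3 Sp1 matches, 1 of which overlaps an NF-kB pair. AP-1, NF-kB and Sp1 are known regulators of the human tissue factor promoter. The capitals mark the letters given above only and need not be the known sites. A site that departs from these letters stays in lower case. A match of letters is a description and does not show binding in these tumors.

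Plat, the gene of tPA, had a higher mean with IL-38 inhibited in both experiments, which did not pass adjustment. Plat stood at 4.89, 0.938, 4.17, 1.87 and 0.596 CPM in IgG tumors and ranged from 1.505 to 13.9 CPM (median 5.33) in anti-IL-38 tumors. It stood at 4.18, 2.18, 4.45 and 5.88 CPM in WT_IgG and at 8.72, 8.33, 10.6 and 7.08 CPM in KO_IgG tumors. The antibody groups overlapped, with 3 of 6 anti-IL-38 tumors above every IgG tumor, while the genotype groups did not overlap. Such a separation of the genotype groups was shown by 3.66% of 16563 genes upward and 3.41% downward. The log2 fold change was 1.24 (SE 0.41) over both experiments, 1.38 (SE 0.60) for the antibody and 1.14 (SE 0.29) for the knockout. None of these passed limma with Benjamini-Hochberg adjustment over all genes tested (adjusted p = 0.331, 0.461 and 0.225), with 95% intervals of 0.38 to 2.10, 0.08 to 2.67 and 0.49 to 1.78. DESeq2 on the recovered reads called Plat in the knockout (log2 fold change 1.10, adjusted p = 0.0274). Without KO_IgG replicate 4 the knockout value was 1.22 (adjusted p = 0.143, limma).

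Plau, the gene of uPA, varied with large overlap. It stood at 25.9, 11.7, 14.5, 13.9 and 13.03 CPM in IgG tumors and at 12.1 to 28.9 CPM (median 19.97) in anti-IL-38 tumors. In WT_IgG tumors it stood at 14.1, 11.2, 19.6 and 14.5 CPM and in KO_IgG tumors at 24.4, 18.98, 25.5 and 11.4 CPM. Tumor 1 of IgG and tumor 4 of KO_IgG lay apart from their groups, in opposite directions. The log2 fold change was 0.42 (SE 0.18) over both experiments, 0.41 (SE 0.24) for the antibody and 0.42 (SE 0.26) for the knockout (limma adjusted p = 0.431, 0.546 and 0.526). Without KO_IgG replicate 4 the knockout value was 0.66 (adjusted p = 0.199). Anti-IL-38 replicate 2 held the highest F3, Plat and Plau levels of all 23 tumors.

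None of the 7 members other than F3 passed an adjusted p of 0.05 in limma for IL-38 inhibited against control, where 0% of 16352 genes passed. At an unadjusted p under 0.05 were 2 of the 7, Plat and Plau, beside 10.5% of all genes. For the antibody alone 0 of 7 passed adjustment, as did 0% of 16002 genes, and 1 of 7, Plat, had an unadjusted p under 0.05, beside 10.5% of genes. For the knockout alone 0 of 7 passed, beside 0.00604% of 16563 genes, and 1 of 7, again Plat, had an unadjusted p under 0.05, beside 12.1%. edgeR called 0 of the 7 in each of these comparisons, and DESeq2 called 0, 0 and 1, beside 0.428%, 0.469% and 1.84% of all genes.

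**Figure D2:**
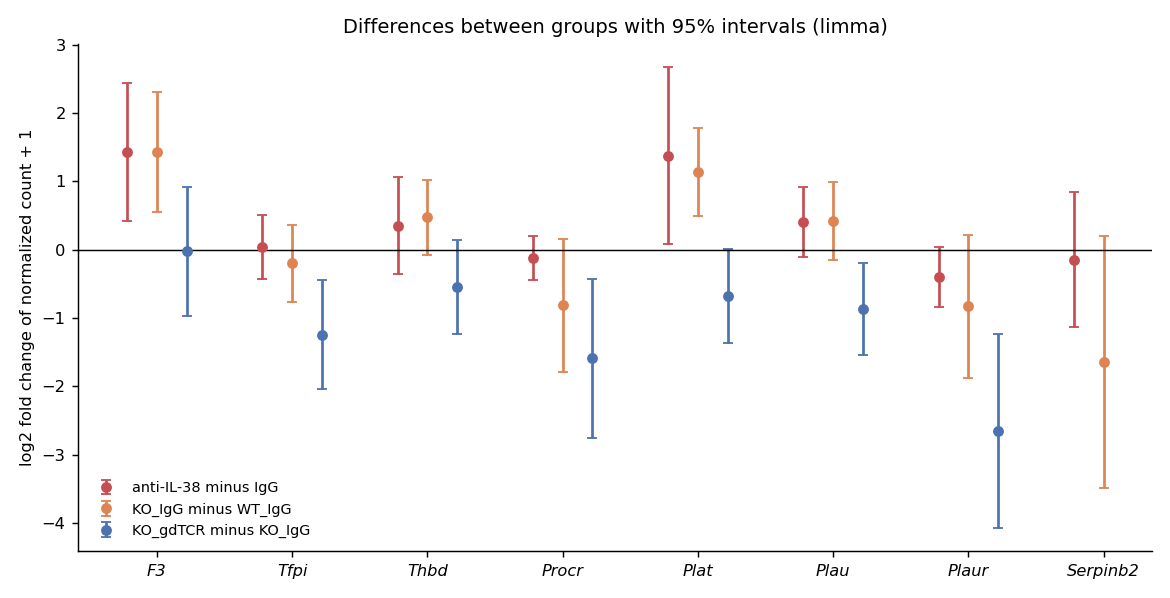
Log2 fold change of log2(normalized count + 1) with its 95% interval (limma, vertical axis) for each gene in 3 comparisons, anti-IL-38 minus IgG, KO_IgG minus WT_IgG and KO_γδTCR minus KO_IgG; the last was not tested for Serpinb2. Plat lay at 1.38 and 1.14 in the first pair and Plaur at -2.66 in the last.

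The mean of the inhibitor Tfpi differed little with IL-38 inhibited, and the anticoagulant receptor Thbd had a higher mean in both experiments, which did not pass adjustment. Tfpi ranged from 6.997 to 15.8 CPM in IgG, 7.65 to 12.3 in anti-IL-38, 7.73 to 9.74 in WT_IgG and 4.71 to 9.95 in KO_IgG tumors. Its log2 fold change over both experiments was -0.05 (95% interval -0.42 to 0.32, limma adjusted p = 0.944). Thbd ranged from 2.64 to 5.53 CPM in IgG, 2.37 to 8.13 in anti-IL-38, 2.96 to 5.62 in WT_IgG and 5.01 to 6.74 in KO_IgG tumors. Its log2 fold change was 0.40 over both experiments (95% interval -0.04 to 0.84, limma adjusted p = 0.504). For the antibody the Thbd value was 0.35 (adjusted p = 0.706) and for the knockout 0.47 (adjusted p = 0.461).

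Procr, Plaur and Serpinb2 had lower means with IL-38 inhibited, and the knockout values depended on KO_IgG replicate 4. Procr stood at 17.5, 22.8, 20.8 and 19.4 CPM in WT_IgG and at 14.5, 16.4, 18.96 and 3.36 CPM in KO_IgG tumors. Plaur stood at 17.9, 19.5, 22.6 and 13.4 CPM in WT_IgG and at 13.4, 13.8, 18.6 and 2.78 CPM in KO_IgG tumors. For both genes KO_IgG replicate 4 was far below the other 3 tumors of its group. The knockout log2 fold change was -0.82 for Procr (limma adjusted p = 0.469) and -0.83 for Plaur (adjusted p = 0.489), and -0.26 (adjusted p = 0.550) and -0.24 (adjusted p = 0.660) without that tumor. For the antibody it was -0.12 for Procr (adjusted p = 0.787) and -0.40 for Plaur (adjusted p = 0.497). Serpinb2 was counted by 5 to 36 reads in the 19-library table except for KO_IgG replicate 4 with 0 reads, and its knockout log2 fold change of -1.64 (adjusted p = 0.448) was -0.85 (adjusted p = 0.573) without it.

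The antibody and the knockout difference were compared as an interaction term over 19 tumors. Of the members other than F3, 0 of 7 passed adjustment in limma, beside 0.00612% of 16352 genes, and 0 had an unadjusted p under 0.05, beside 7.67%. edgeR called 0 of 7. For Plat the antibody effect minus the knockout effect was 0.24 (95% interval -1.41 to 1.89), for Plau -0.01 (-0.80 to 0.77) and for Serpinb2 1.49 (-0.45 to 3.43). Leaving out KO_IgG replicate 4 gave 0.16 for Plat, -0.25 for Plau and 0.71 for Serpinb2. Differences within the intervals were not detectable. For F3 it was 0.00 (SE 0.69), and -0.28 (SE 0.71) without that tumor, given without a test.

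Under γδ TCR blockade in the knockout, all 7 members other than F3 had lower mean levels, and none of the 6 tested passed adjustment by limma with all tumors. Plaur, the uPA receptor, stood at 0.624, 1.05, 1.12 and 3.87 CPM in KO_γδTCR tumors, on 5 to 34 reads. Its KO_IgG levels of 13.4, 13.8 and 18.6 CPM lay above all of these, and the fourth KO_IgG tumor at 2.78 CPM lay among them. Procr stood at 3.87, 3.27, 1.59 and 5.23 CPM under blockade and showed the same arrangement, since KO_IgG replicate 4 had 3.36 CPM. The log2 fold change was -2.66 (SE 0.64, adjusted p = 0.0657) for Plaur and -1.59 (SE 0.52, adjusted p = 0.110) for Procr by limma, neither past adjustment. Without KO_IgG replicate 4 they were -3.23 (SE 0.50, adjusted p = 0.00100) and -2.13 (SE 0.34, adjusted p = 0.00138) in limma, and both were then called. In that fit every blockade library, and no KO_IgG library, belongs to the set that stood apart. Blockade and library type then coincide, so the calls cannot be assigned to blockade.

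Tfpi stood at 1.87, 2.69, 2.07 and 4.78 CPM under blockade and at 6.66, 4.71, 9.95 and 8.93 CPM in KO_IgG tumors. The 3 lowest tumors were all under blockade, and KO_IgG replicate 4, at 8.93 CPM, was not low for Tfpi. The log2 fold change was -1.24 (SE 0.36, limma adjusted p = 0.0791) with that tumor and -1.13 (SE 0.38, adjusted p = 0.0819) without it. Plau stood at 6.99, 11.9, 6.22 and 13.99 CPM under blockade, with a log2 fold change of -0.87 (SE 0.30, adjusted p = 0.126) that became -1.10 (SE 0.27, adjusted p = 0.0196) without KO_IgG replicate 4. Plat stood at 2.996, 4.67, 3.99 and 8.76 CPM, with 3 of 4 tumors below all KO_IgG tumors, and its log2 fold change was -0.68 (SE 0.31, adjusted p = 0.233). Thbd stood at 2.87, 3.62, 2.07 and 6.03 CPM, with a log2 fold change of -0.54 (SE 0.31, adjusted p = 0.348).

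For F3 the log2 fold change between KO_γδTCR and KO_IgG tumors was -0.03 (SE 0.42), and -0.30 (SE 0.40) without KO_IgG replicate 4. The KO_IgG tumors of this comparison are also the tumors that count as IL-38 inhibited above, so the F3 value is not independent of the choice of F3 and is given without a test, and the knockout and blockade differences share these 4 tumors. Serpinb2 had 0, 0, 1 and 1 reads under blockade and 6, 5, 24 and 0 reads in KO_IgG tumors. Its mean was under the minimum of 5 normalized counts in this table, so it was not tested, and with 3 counts of a library as the limit for a count of 0 the blockade tumors allow up to 0.375 and 0.350 CPM in the pair without reads.

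By limma 0 of the 6 members tested under blockade, F3 and Serpinb2 aside, passed adjustment, beside 0% of 16481 genes. At an unadjusted p under 0.05 were 4 of 6, Tfpi, Procr, Plau and Plaur, all lower, beside 21.7% of genes in either direction and 9.0% in that direction. No member had groups without overlap, beside 4.57% of genes upward and 4.98% downward. DESeq2 called 3 of 6, Tfpi, Procr and Plaur, beside 6.27% of all genes, and edgeR called 0. Without KO_IgG replicate 4 limma called 3 of 6, Procr, Plau and Plaur, beside 4.85% of 16480 genes called lower and 9.45% called higher. The median log2 fold change of the 7 members in the fit, F3 included, was -0.87 and that of all genes 0.02. This comparison sets 4 libraries rich in pseudogene reads against 3 without and 1 with them, so blockade and library type cannot be told apart. Without KO_IgG replicate 4 they coincide fully, so every call from that fit compares both at once. In CPM, the level in KO_IgG replicate 4 lay within the range of the blockade tumors for every member but Tfpi, where it lay above them.

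**Figure D3:**
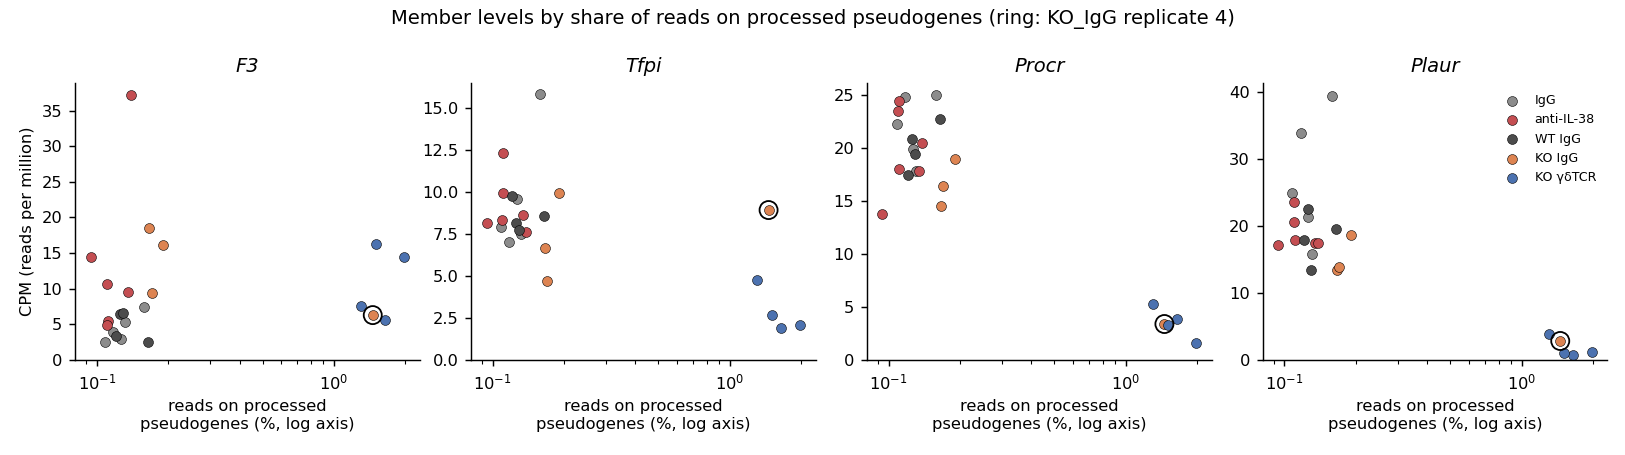
Level in CPM (vertical axes) of F3, Tfpi, Procr and Plaur in the 23 tumors against the share of reads on processed pseudogenes (horizontal, log axis, percent); points are tumors coloured by group, and the ring marks KO_IgG replicate 4. The ringed tumor lay among the KO_γδTCR tumors for Procr (3.36 CPM) and Plaur (2.78 CPM) and above them for Tfpi (8.93 CPM).

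The macrophage markers Csf1r, Adgre1, Cd68, C1qa, C1qb and Mrc1 moved with Procr and Plaur. They summed to 2030 to 2876 CPM in IgG, 1737 to 2440 in anti-IL-38, 1722 to 2283 in WT_IgG, 724 to 1871 in KO_IgG and 570 to 919 in KO_γδTCR tumors, and the 724 CPM belonged to KO_IgG replicate 4. Of the 6 markers 5 had a lower mean under blockade, 4 of them at an unadjusted p under 0.05 and 0 past adjustment in limma with all tumors. C1qa was at 0.04, or -0.01 with TMM rescaling. Without KO_IgG replicate 4, limma called 4 markers lower and 2 higher, of 47 tested over the lists of all cell types. These counts are not given by cell type here, and in that fit blockade and library type coincide. Beside them, 4.85% of all genes were called lower and 9.45% higher. None of the 6 macrophage markers was at 0 in any group. The neutrophil markers S100a8, S100a9 and Csf3r, the 3 of 5 with enough reads to test, had log2 fold changes of -0.72, -0.65 and -0.85 under blockade, none past adjustment in limma, and the list summed to 25.04 to 41.6 CPM in KO_IgG and 7.49 to 34.9 CPM in KO_γδTCR tumors. The endothelial markers, which stand for the cells best known for Thbd, Procr and Tfpi, summed to 90.2 to 122 CPM in KO_IgG and 75.9 to 147 CPM in KO_γδTCR tumors and so overlapped fully. The part of these cell types in the results was not tested.

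The starts of Procr and Plaur are shown because these genes were low together in the 5 libraries that stood apart. The 250 bases before the start, on the plus strand of GRCm38.p6 at chr2:155750967-155751216 for Procr and at chr7:24462233-24462482 for Plaur, with the motif letters given above in capitals, were:
Procr: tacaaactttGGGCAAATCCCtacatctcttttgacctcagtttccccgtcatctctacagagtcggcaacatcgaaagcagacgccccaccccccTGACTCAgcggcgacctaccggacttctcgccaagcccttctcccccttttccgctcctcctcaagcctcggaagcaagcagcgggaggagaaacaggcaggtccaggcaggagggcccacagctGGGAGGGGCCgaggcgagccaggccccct
Plaur: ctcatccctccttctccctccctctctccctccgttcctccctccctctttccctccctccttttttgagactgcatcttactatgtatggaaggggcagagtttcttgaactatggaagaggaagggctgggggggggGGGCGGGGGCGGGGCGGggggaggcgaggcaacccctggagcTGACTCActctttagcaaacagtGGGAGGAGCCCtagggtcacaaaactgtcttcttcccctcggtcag
The Procr window held 1 AP-1 match, 3 NF-kB matches and no Sp1 match, and the Plaur window held 1 AP-1 match, 2 overlapping NF-kB matches on opposite strands, 3 Sp1 matches and 1 Egr-1 match that overlaps 2 of them. The AP-1 letters stood in a window of 4 of the 5 matched members, F3, Procr, Plaur and Serpinb2, and in 6.75% of all windows. The first share counts genes and the other counts windows, and Tfpi and Serpinb2 entered with more windows than the other members. The set was chosen from these data and 3 members had no window, so the shares were not compared by a test.

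No member passed adjustment between the control groups in limma, and age at start, isotype and experiment cannot be told apart between them. Against IgG, WT_IgG tumors had a log2 fold change of 0.94 for Plat (95% interval -0.31 to 2.18, limma adjusted p = 0.397) and -0.62 for Plaur (-1.17 to -0.07, adjusted p = 0.224). For F3 it was -0.02 (SE 0.39), given without a test because its control levels were part of the choice. Of the other members 0 of 7 passed adjustment, beside 0.0994% of 16099 genes, and 1 of 7, Plaur, had an unadjusted p under 0.05, beside 18.6% of genes (9.49% higher, 9.11% lower). edgeR and DESeq2 called 0, the latter beside 4.58% of genes. No member had groups without overlap, beside 3.57% of genes upward and 3.45% downward. Macrophage markers, at 1722 to 2283 CPM in WT_IgG against 2030 to 2876 CPM in IgG, moved with Plaur here. So did the neutrophil markers, at 25.7 to 55.4 against 47.1 to 166 CPM, with 4 of 4 tested lower (median log2 fold change -0.93, none past adjustment), and they summed to 22.02 to 55.2 CPM in anti-IL-38 tumors, where Plaur had a lower mean than in IgG too. The part of these markers was not tested. The Plat interval reaches values as large as those seen with IL-38 inhibited, so the level of Plat in control tumors is uncertain to that extent. The adipocyte markers, summed, were 3.65 to 13.4 CPM in IgG and 37.4 to 77.9 CPM in WT_IgG tumors, and their part was not tested.

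Over the 19 tumors without γδ TCR blockade, the genes most like F3 among 13609 with a mean of at least 20 normalized counts were M6pr, the cation-dependent mannose-6-phosphate receptor (Pearson r = 0.901), Pigg, an enzyme of GPI anchor synthesis (0.873), App, the amyloid precursor protein (0.871), Arsb, a lysosomal sulfatase (0.869), and Tmem38b, a membrane cation channel (0.850). Of the members, Plau (r = 0.761, rank 63) and Plat (r = 0.683, rank 208) followed F3 most closely. Within groups, as deviations from the group means, the values were 0.694 for Plau and 0.560 for Plat. For M6pr, Pigg, App, Arsb and Tmem38b the values within groups were 0.836, 0.846, 0.825, 0.816 and 0.782. Thbd had r = 0.415, and Tfpi (-0.12), Procr (-0.08) and Plaur (-0.12) had values near 0, which within groups were -0.12, 0.23 and 0.24. These are descriptions across 19 tumors that share their scaling, with no p. The r over all 19 tumors includes the difference for which F3 was chosen, so these ranks are not independent of that choice. Besides, 1 tumor (anti-IL-38 replicate 2) is highest in all 3 of F3, Plat and Plau.

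**Figure D4:**
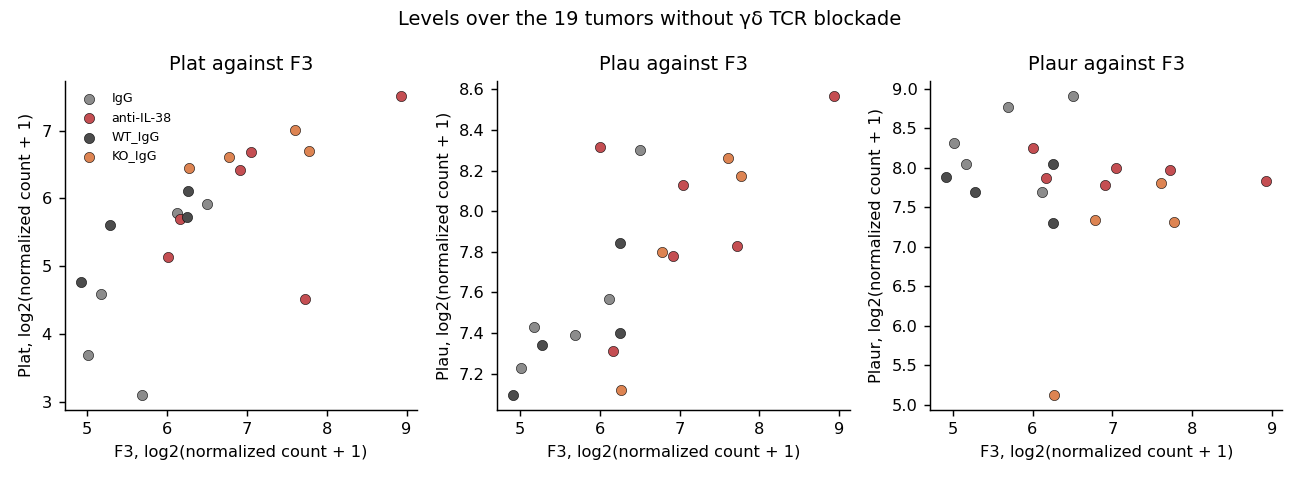
Level of Plat, Plau and Plaur (vertical) against F3 (horizontal) as log2(normalized count + 1) in the 19 tumors without γδ TCR blockade; points are tumors coloured by group. Plat and Plau were higher in tumors with more F3 (r = 0.683 and 0.761), and Plaur had r = -0.12.

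The wider coagulation and plasminogen system was followed through 42 other genes, of which 41 matched the tables and 30 or 29 were abundant enough to test. None passed adjustment in limma for IL-38 inhibited against control, where 4 were higher and 1 lower at an unadjusted p under 0.05 (6.42% and 4.13% of all genes), nor for the antibody (5 higher, 1 lower, beside 5.61% and 4.91%) or the knockout (2 higher, 4 lower, beside 6.73% and 5.40%). The knockout counts without KO_IgG replicate 4 were 6 higher and 5 lower of 30, with none past adjustment, beside 1395 higher and 870 lower of 16225 genes. The median log2 fold change of the tested genes was 0.08, 0.09 and -0.14, beside 0.00, 0.00 and 0.01 for all genes. Over both experiments the smallest p-values belonged to Gas6, a vitamin K-dependent growth factor (0.92, adjusted p = 0.255), A2m, a broad protease inhibitor (2.04, adjusted p = 0.347), and Mrc2, a collagen receptor that binds the uPA receptor complex (0.77, adjusted p = 0.389).

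The fibrinogen chain gene Fgg had the smallest p in the antibody and in the knockout comparison, with opposite signs. Fgg stood at 16.8, 13.4, 11.1, 9.64 and 2.01 CPM in IgG and 16.6 to 57.2 CPM in anti-IL-38 tumors, and its log2 fold change was 1.90 (adjusted p = 0.373). It stood at 26.2, 11.9, 33.4 and 12.6 CPM in WT_IgG and 9.98, 3.16, 9.01 and 6.03 CPM in KO_IgG tumors, with a log2 fold change of -1.52 (adjusted p = 0.238). The antibody minus knockout effect was 3.42 (SE 0.71), which did not pass adjustment either (adjusted p = 0.362, limma). Beside Fgg, the antibody comparison was led by Gas6 (1.28, adjusted p = 0.376) and Mrc2 (1.06, adjusted p = 0.420), the knockout comparison by Pros1, the gene of protein S (0.73, adjusted p = 0.245), and Vwf, the gene of von Willebrand factor (-0.73, adjusted p = 0.276), and the difference by Vwf (0.88, adjusted p = 0.543) and Proc, the gene of protein C (2.35, adjusted p = 0.590).

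Under γδ TCR blockade 4 of 29 pathway genes were higher and 4 lower at an unadjusted p under 0.05, beside 12.7% and 9.0% of all genes, and none passed adjustment. F7, the gene of factor VII that tissue factor binds, stood at 0, 0, 0.319 and 1.93 CPM under blockade and at 34.2, 36.6, 41.1 and 2.44 CPM in KO_IgG tumors. F10, the gene of factor X, which lies beside F7 in the genome, stood at 0.250, 0, 0 and 2.62 CPM and at 30.7, 33.6, 31.0 and 1.16 CPM. Both were again low in KO_IgG replicate 4, as were Procr and Plaur. The log2 fold changes were -5.81 for F7 and -5.38 for F10 (adjusted p = 0.0657 for both) and 2.30 for Proc (adjusted p = 0.0657). Without KO_IgG replicate 4 limma called 5 pathway genes, F7 (-6.76), F10 (-6.52), A2m (5.32), Proc (2.32) and Fgb (2.53), of which A2m and Fgb are named after their values were seen, which is 3 higher and 2 lower of 29 beside 9.45% and 4.85% of all genes. A2m stood at 19.5 CPM in KO_IgG replicate 4, 0.378 to 1.11 CPM in the other KO_IgG tumors and 21.4 to 34.6 CPM under blockade. In the fit without that KO_IgG tumor blockade and library type coincide, so the 5 calls do not separate them. Between WT_IgG and IgG the smallest p-values belonged to F2r, a thrombin receptor (1.22, adjusted p = 0.0889), F7 (-0.62, adjusted p = 0.141) and Thbs1, thrombospondin 1 (-0.73, adjusted p = 0.144), with 0 of 30 past adjustment in limma.

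**Figure D5:**
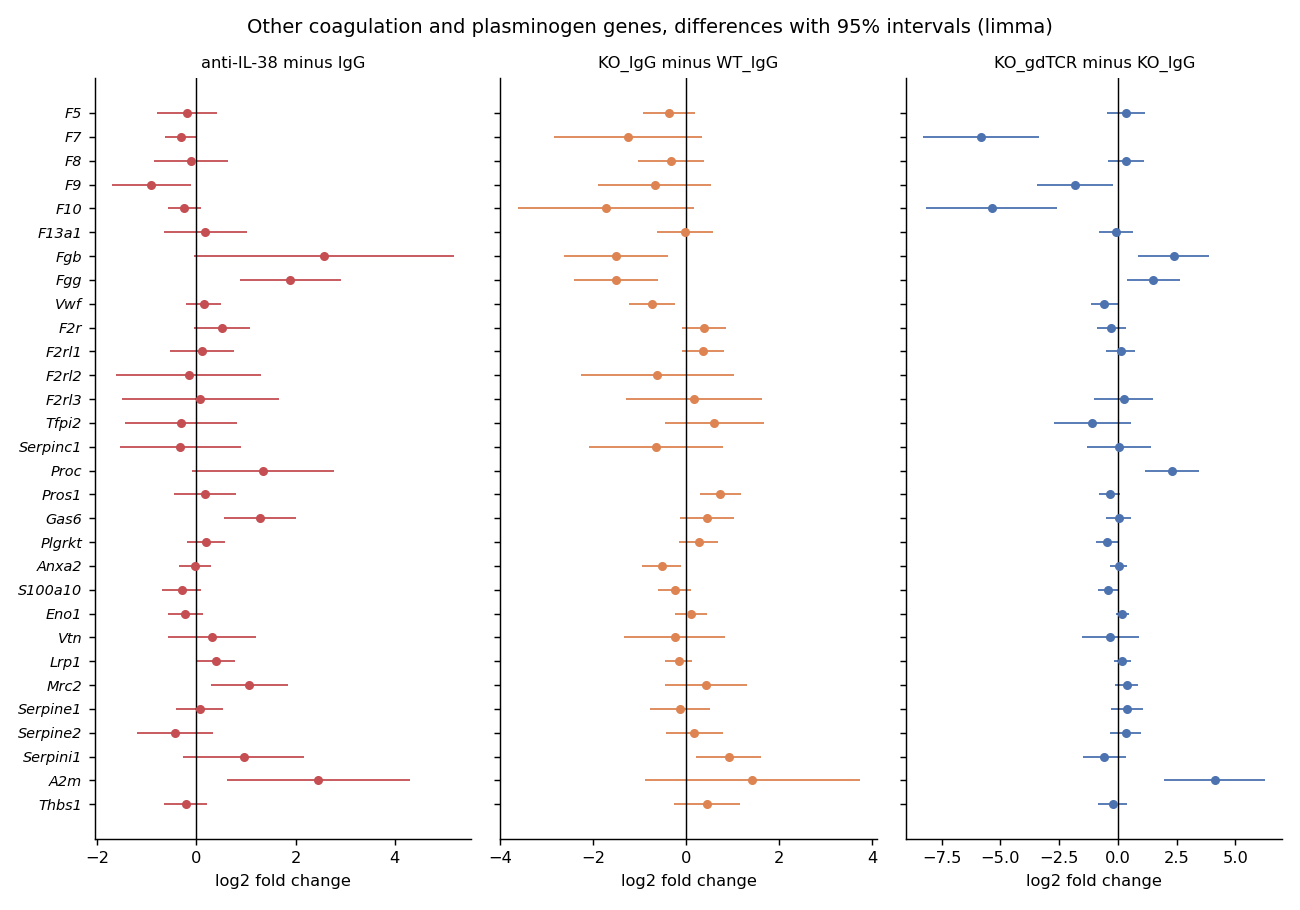
Log2 fold change of log2(normalized count + 1) with its 95% interval (limma, horizontal axes, scaled per panel) of the other coagulation and plasminogen genes tested, for anti-IL-38 minus IgG, KO_IgG minus WT_IgG and KO_γδTCR minus KO_IgG. Fgg lay at 1.90 and -1.52 in the first pair of panels, and F7 at -5.81 and F10 at -5.38 in the last.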

How the data were processed

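RNA of 23 PyMT tumors was sequenced with QuantSeq 3′ libraries. The authors processed reads with the BlueBee QuantSeq pipeline; the submitters' processing notes name STAR, HTSeq, DESeq2 and the build GRCm39, without versions. Whether counting used the strand is not given in the sources used here. In the deposited tables each value is a signal, a read count that the authors divided by 1 size factor per library, separately for a table of 19 and a table of 8 libraries, which share the KO_IgG tumors. Division by the value of 1 read gave whole reads for 100% of values within a tolerance of 0.0001%. In WT_IgG replicate 1 the value of 1 read was 0.996, too close to 1 for this to be a check. CPM and the count tests used these reads.

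Groups came from the titles. Each comparison was fitted by limma 3.58.1 (R 4.3.3) to log2(normalized count + 1) of its own libraries, for genes whose mean reached 5 normalized counts. Tests were two-sided and moderated along a mean trend, with Benjamini-Hochberg adjustment over the genes of the fit and a threshold of 0.05. Tumors are the replicates, and p-values measure the spread between these tumors. Alternatives were pseudocounts of 0.5 and 5, a minimum mean of 20 or none, rescaling by TMM, edgeR 4.0.16, DESeq2 1.42.0, the replicate number as a block, a term for the experiment, and omission of 1 library at a time. Depth was 6273049 to 15879164 reads on genes, so that 3 counts equal 0.189 to 0.478 CPM; reads carry no molecular identifiers here, and this limit covers counting error only. The fits were also run on simulated counts with the same spread in every library and changes larger than those of most members. The simulation therefore does not cover small changes or the libraries that stood apart.

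The members, the 42 pathway genes and the 51 markers were chosen with earlier results of these data known. Named are the 8 members, up to 3 pathway genes with the smallest unadjusted p under 0.05 per comparison where none passed adjustment (up to 5 where some did), and the 5 genes most like F3. Names were taken from GENCODE M21 for 47224 of 47643 identifiers; promoter sequences are from RefSeq on GRCm38.p6, another build than that of the counts. Libraries of the same group all differed beyond counting noise (chi-square per degree of freedom 17.1 to 138). Il1f10 expression could not serve as a genotype check.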

Additional observations from a re-analysis of the deposited data

Results flagged for a closer look

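In 3 of 40 groups of values (8 genes in 5 groups of tumors) the highest tumor was separated from the rest by more than Dixon's 95% limit for the gap over the range, a limit that chance passes in about 1 of 20 groups. F3 in anti-IL-38 replicate 2 was 37.2 CPM, against 4.93 to 14.4 CPM in the other tumors of the group (gap over range 0.706, n = 6). Plau in IgG replicate 1 was 25.9 CPM, against 11.7 to 14.5 CPM in the others (0.803, n = 5). Plaur in KO_γδTCR replicate 4 was 3.87 CPM, against 0.624 to 1.12 CPM in the others (0.848, n = 4). For none of the members tested did the effects of antibody and knockout differ past adjustment in limma, and none had an unadjusted p under 0.05.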

How the results depend on the processing

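The F3 difference with IL-38 inhibited kept its direction under each alternative run: leaving out 1 tumor gave 1.23 to 1.56 over both experiments, 1.07 to 1.66 for the antibody and 1.18 to 1.71 for the knockout. The count of other members called was 0 under limma in every comparison, except 3 under γδ TCR blockade without KO_IgG replicate 4 (range 0 to 3 over single omissions), and DESeq2 called 1 in the knockout and 3 under blockade. Of the other pathway genes 0 were called under blockade with all tumors or with TMM rescaling, and 5 without KO_IgG replicate 4. Other omissions were not run for the pathway genes. The blockade calls without KO_IgG replicate 4 come from a fit in which blockade and library type coincide. Of the 5 genes most like F3, 2 stayed among the first 5 by Spearman rho and 2 by deviations from the group means.

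Values near 0 changed sign when 1 tumor was left out: F3 under blockade (-0.30 to 0.24) and between controls (-0.22 to 0.23); Tfpi over both experiments (-0.11 to 0.056), for the antibody (-0.051 to 0.22) and for the knockout (-0.35 to 0.015); Serpinb2 for the antibody (-0.35 to 0.077) and between controls (-0.46 to 0.15); Thbd between controls (-0.24 to 0.057). For the antibody minus knockout effect these were F3 (-0.36 to 0.25), Thbd (-0.28 to 0.093), Plat (-0.14 to 0.56), Plau (-0.25 to 0.17) and Plaur (-0.16 to 0.74), and Plau between controls (-0.30 to 0.016). Over all genes, limma called 0, 0, 1, 0 and 16 in the order inhibition, antibody, knockout, blockade and controls, edgeR 1, 0, 0, 0 and 11, and DESeq2 70, 75, 305, 1033 and 738.

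With the replicate number as a block, 0 members were called in any comparison and Tfpi for the antibody was -0.045; deviations of same-numbered tumors correlated by -0.169 to 0.0834, so the numbers do not pair the tumors. Under the block limma called 0, 1, 0, 0 and 36 genes in the same order. Low read counts limit Serpinb2 and, under blockade, Plaur (5 to 34 reads). They also limit Procr (10 to 46), Tfpi (13 to 42), Thbd (13 to 53) and Plat (24 to 77) under blockade.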
